A study of Mus musculus with 31 samples.

Results

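Brains taken 4 h after an injection of oleic acid were compared with brains taken 4 h after an injection of physiological serum. The arrays were chosen by their sample titles, which gave 3 oleic acid arrays and 2 serum arrays, 5 of the 31 arrays of the series. The oleic acid mice were female C57BL/6J mice aged 6 weeks that received oleic acid into the tail vein. The labels give an injected volume of 200 µl and 1.2 µl of oleic acid per g of body weight. How these amounts fit together was not stated. The serum mice shared sex, strain and age and received 200 µl of physiological serum by the same route. Both groups were anaesthetised with xylazine and ketamine, so the anaesthetic and the injection were common to all 5 mice and no untreated brain was among them. Per the series' design text each array came from a mouse of its own, and no pooling was stated. From each brain 200 ng of total RNA was labelled with Cy3 and measured on a single-colour Agilent array of 62976 spots. The other 26 arrays, taken at 1, 1.5, 3, 18 and 24 h, did not enter the differences at 4 h themselves. They entered the estimate of the spread, the comparison between times, the choice of probes, the ranking of genes by brightness and the ranges over the series.

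Oleic acid in the blood damages the capillaries of the lung and is used in animals as a model of acute lung injury, in which plasma leaks into the air spaces and oxygen uptake falls. Inflammation that reaches the brain is usually followed there through cytokines and chemokines, interferon-induced genes, markers of activated endothelium and astrocytes, and the genes of infiltrating leukocytes. A brain sample also carries the expression programmes of its regions, because cerebellum, hypothalamus and brain stem each use genes that the rest of the brain barely transcribes.

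Levels below are log2 Cy3 signals after background subtraction, relative to the 75th percentile of the same array, so that 0 is the level of that percentile. Differences are oleic acid minus serum on the log2 scale, ± gives the standard error of the fit by limma, a linear-model test for arrays, and n was 3 oleic acid and 2 serum arrays throughout. A gene passed when its p, adjusted over all 25162 genes and unnamed transcripts tested, was under 0.05. Over all genes the median difference was 0.0076, with 51.4% of the differences above 0 and 48.6% below, and among genes well above background on all 5 arrays 48.9% were above 0. Scaling each array to its median moved the median of all genes to -0.19 and left 22.4% of the differences above 0, so small differences have no settled direction and lists are read against these values.

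The 5 arrays lay on a single slide, which both groups shared. Between 59.6% and 60.4% of the spots were well above background on 4 of them, against 76.3% on oleic acid replicate 1, the highest share among the 31 arrays. The additional spots included receptors of the nose and tongue, families chosen for display after their values were seen. Of 1198 probes for olfactory receptors, 487, 65 and 85 were well above background on oleic acid replicates 1, 2 and 3, against 59 and 71 on serum replicates 1 and 2. Of 37 probes for bitter taste receptors, the counts were 12, 5 and 5 on the oleic acid arrays and 2 and 4 on the serum arrays. Oleic acid replicate 1 thus stood apart from both groups in these families, while oleic acid replicates 2 and 3 had counts near those of the serum arrays.

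**Figure D1:**
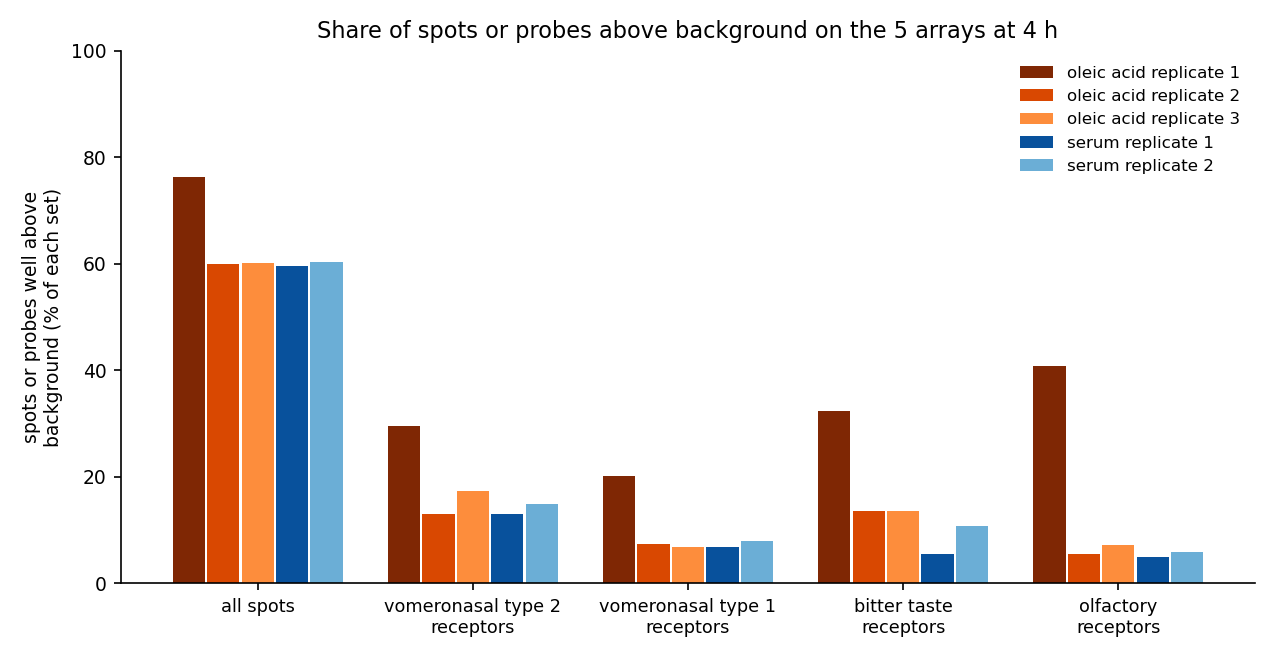
Share of spots (leftmost set) or of probes of 4 receptor families that were well above background, in percent, on each of the 5 arrays at 4 h. The bar of oleic acid replicate 1 is the highest in every set, at 76.3% of all spots and 40.7% of olfactory receptor probes, against 4.92% to 7.1% of olfactory receptor probes on the other arrays.

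The excess on oleic acid replicate 1 lay mainly in dim genes when the genes were divided into 4 equal parts by brightness. In the dimmest part its levels exceeded the mean of oleic acid replicates 2 and 3 by a median of 0.39, and in the brightest part they lay below it, at a median of -0.06. The oleic acid minus serum difference had a median of 0.18 in the dimmest of these parts and -0.06 in the brightest, and without oleic acid replicate 1 these medians were 0.02 and -0.03. Without oleic acid replicate 1 the medians of some lists near background were 1.49 for liver, 0.65 for lung, 0.42 for pituitary (4 of 7 higher), 0.35 for neutrophils and monocytes and -0.14 for cytokines and chemokines, against 1.18, 0.77, 0.43, 0.30 and -0.08 on all 5 arrays. Others depended on that array. Hindbrain and spinal cord genes went from 0.59 (11 of 12 higher) to -0.16 (4 of 12 higher) without it, and muscle and heart genes from 0.32 to 0.01. Few list medians held their size when arrays were left out 1 at a time: 27 of 45 changed sign in at least 1 case, and 43 changed sign or moved by over 1.5 times. Across genes, oleic acid replicate 1 correlated with the other 4 arrays at 0.983 to 0.985, while oleic acid replicate 2 correlated with serum replicate 1 at 0.994 and oleic acid replicate 3 with serum replicate 2 at 0.992. The closest neighbours of oleic acid replicates 2 and 3 were thus serum arrays and not each other, at 0.987.

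The regional content of the samples split across both treatments. Gabra6, a GABA-A receptor subunit of cerebellar granule cells, stood at 0.68, 1.94 and -6.12 on oleic acid replicates 1, 2 and 3, against 1.89 and -7.31 on serum replicates 1 and 2, and it was not well above background on the lowest array of each group. Pcp2, a protein of cerebellar Purkinje cells, gave 4.91, 6.02 and 0.11 on the oleic acid arrays and 5.83 and -1.28 on the serum arrays. Hoxb5, a homeobox gene of the hindbrain and spinal cord, gave -1.21, -0.99 and -7.54, against -0.40 and -7.66. Oleic acid replicate 3 and serum replicate 2 were thus low for cerebellum and hindbrain alike, the other 3 arrays were high, and the groups overlapped for all 3 genes. The mean over 12 granule cell genes was 0.75, 1.58 and -1.15 in oleic acid brains and 1.47 and -1.22 in serum brains, and serum replicate 2 held the lowest value among the 31 arrays. Neither group was uniform whole brain by these markers, although all 5 samples carry the label brain, and fewer cells of a type cannot be told apart from less RNA per cell in such samples.

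Hypothalamic content followed another pattern. Hcrt, the precursor of the wakefulness peptides orexin, stood at 2.71, 2.52 and -0.70 on the oleic acid arrays, against 2.59 and 3.15 on the serum arrays, with a difference of -1.36 ± 1.1 (adjusted p = 0.996, limma). Oxt, the precursor of oxytocin, gave 3.15, 3.65 and -0.65 in oleic acid brains and 3.17 and 4.21 in serum brains. Oleic acid replicate 3 was the low array for both genes, and also for Pmch, the melanin-concentrating hormone precursor, at -0.63 against a range of 1.01 to 1.76 on the other 4. Of 18 neuropeptide genes 14 were lower in oleic acid brains, with a median of -0.29 and none past the adjusted test. The list mean on each array was 0.38, 0.54 and -0.48 for oleic acid and 0.39 and 0.87 for serum. Between oleic acid replicate 2 and serum replicate 1, both with cerebellum and hypothalamus, 11 of the 18 were higher in the oleic acid brain at a median of 0.07, while between oleic acid replicate 3 and serum replicate 2 the number was 2 at -0.57. Leaving out any single array kept the median negative, at -0.45 to -0.22. Transcription factors and enzymes of the hypothalamus gave 3 of 11 higher at -0.28, and 7 of 11 at 0.40 without serum replicate 2.

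The same array was low in the aminergic nuclei of the midbrain and raphe. Slc6a4, the serotonin transporter, stood at -2.57, -2.73 and -7.12 in oleic acid brains and -2.70 and -3.06 in serum brains. Slc6a3, the dopamine transporter, gave 1.63, 1.30 and 0.28, against 1.43 and 1.77. Of 11 genes of these neurons 8 were lower in oleic acid brains (median -0.33), and without oleic acid replicate 3 the median was 0.11. In forebrain lists the medians were 0.03 over 12 striatal genes, 0.05 over 12 hippocampal genes and 0.02 over 10 olfactory bulb genes, each turning negative under scaling to the median. Ppp1r1b, a phosphoprotein of striatal neurons, stood at 6.07, 5.78 and 6.29 in oleic acid brains and at 5.52 and 6.20 in serum brains, which overlap. The serum arrays differed from each other in this region, and the striatal median was -0.29 without serum replicate 1 and 0.36 without serum replicate 2.

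**Figure D2:**
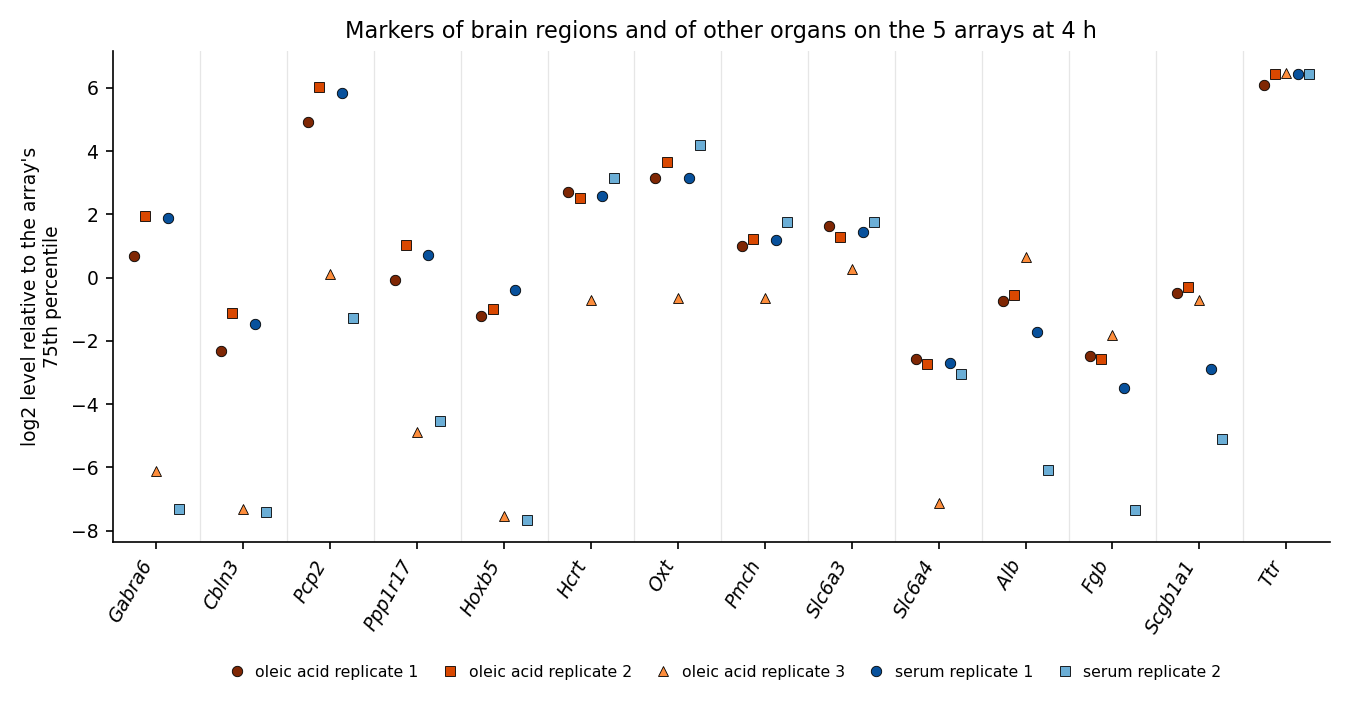
Log2 level, relative to the 75th percentile of the array, of 14 markers of brain regions and other organs on the 3 oleic acid arrays (left in each column) and the 2 serum arrays (right) at 4 h. Gabra6, Cbln3, Pcp2, Ppp1r17 and Hoxb5 were low on oleic acid replicate 3 and serum replicate 2, Hcrt, Oxt and Pmch were low on oleic acid replicate 3 alone, and Alb, Fgb and Scgb1a1 were lowest on serum replicate 2.

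With these arrays, 1 feature of 25162 passed the test, which is 0.00397% of those tested: no gene rose and 1 transcript fell in oleic acid brains. At an unadjusted p under 0.05 there were 523 higher (2.08%) and 241 lower (0.958%), 764 in all (3.04%), while 5% of the features tested would be 1258. Of the 523, 345 lay in the dimmest of these parts, and without oleic acid replicate 1 the counts were 213 higher and 205 lower. The 2 groups did not overlap for 2377 genes that were higher in oleic acid brains (9.45%) and for 2189 that were lower (8.7%).

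The feature that fell was ENSMUST00000079163, annotated on the array as a transcript of vomeronasal type 2 receptor 10, a member of a family of pheromone receptors of the vomeronasal organ. It stood at -7.53, -7.15 and -7.16 in oleic acid brains, against -4.24 and -3.68 in serum brains, a difference of -3.32 ± 0.42 (limma adjusted p = 0.00237). It was well above background on both serum arrays and on none of the 3 oleic acid arrays, so the difference is given as at least 2.52-fold lower, against the lowest signal well above background on each oleic acid array. The raw mean spot intensities were 36.1, 28.5 and 28.2 in oleic acid brains over a local background of 21, 20 and 20, and 59.7 and 74.5 in serum brains over 22 and 21. All of these are dim, and the gene was read from 1 spot on each array. The filter on dim probes kept a probe that was well above background on all arrays of at least 1 group. This probe was kept only through the 4 h serum arrays, so its test used the same readings that let it in. On the 26 arrays of the other times its level ranged from -7.79 to -5.38 with a median of -7.40, and 1 of the 26 was well above background. The oleic acid brains at 4 h were therefore at the level of most of the series, and the serum brains at 4 h lay above all of the other 29 arrays. Under background correction with normexp, which models background and signal together, the difference was -0.58 and did not pass (limma adjusted p = 0.999). With the spread taken from the 5 arrays of 4 h alone, the difference of -3.32 did not pass (limma adjusted p = 0.256). Without serum replicate 2 it was -3.04 and did not pass (limma adjusted p = 0.237), and over the alternatives tried the adjusted p of ENSMUST00000079163 ranged from 3.63e-05 to 0.999.

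**Figure D3:**
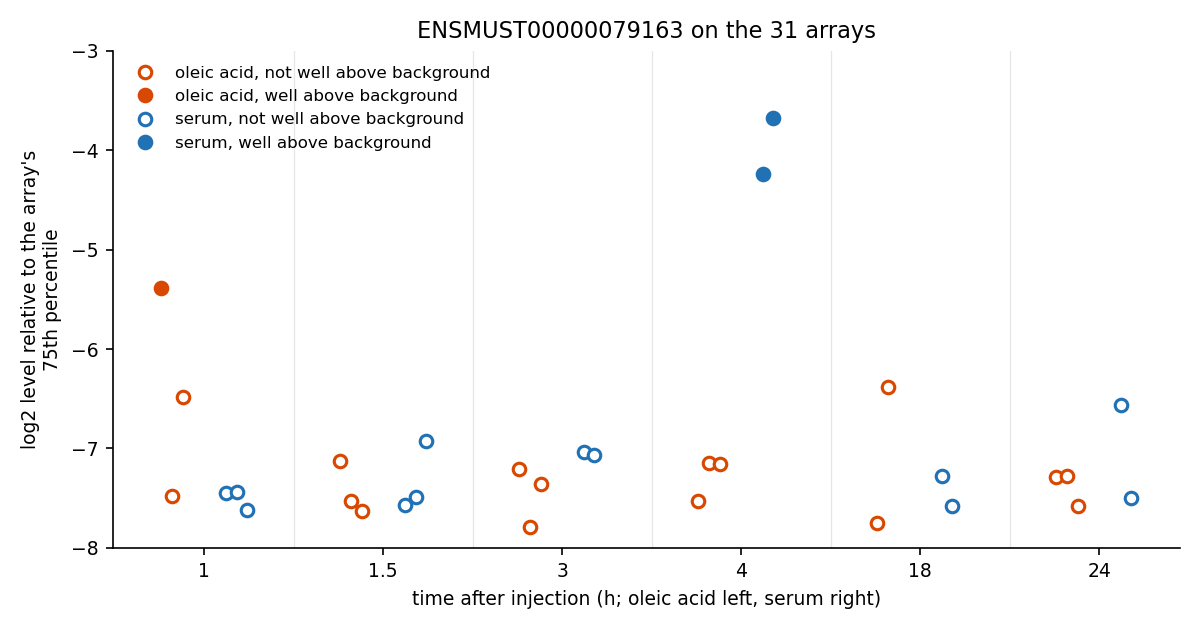
Log2 level of ENSMUST00000079163 on each of the 31 arrays by time after injection, with oleic acid left and serum right at each time, and filled points for arrays on which the spot was well above background. The 2 serum arrays at 4 h, at -4.24 and -3.68, are the highest points, and the 3 oleic acid arrays at 4 h lie at -7.53 to -7.15 among the remaining arrays.

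The probe sequences show what each of these near-background readings rests on, and the probes of 3 chemosensory receptors are given because each was detected on all arrays of 1 group and none of the other. Each probe has 60 bases, placed here by the array's own annotation, which uses the build mm9. The first 30 bases of the probe of ENSMUST00000079163 lie at chr5:109422749-109422778 on the minus strand (the whole probe starts at 109422719), that of Tas2r137 lies at chr6:40442149-40442208 on the plus strand, and that of Olfr1052 at chr2:86138854-86138913 on the plus strand. The capitals mark a stop codon in the first reading frame at the end of the Olfr1052 probe, which places it at the end of the coding region, and the Tas2r137 probe has no stop codon in its first frame.
ENSMUST00000079163: atggaactccaaaatcattttctaaggaaa
Tas2r137: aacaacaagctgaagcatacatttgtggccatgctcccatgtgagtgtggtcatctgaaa
Olfr1052: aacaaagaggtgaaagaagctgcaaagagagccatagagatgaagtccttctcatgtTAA
Their GC contents were 25%, 45% and 40%, against a median of 43.3% over all probes. With the probes aligned base by base, the closest other probe of the array matched 34, 32 and 38 of the 60 bases in that order, so no other probe shares 45 or more bases with any of them.

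Tas2r137, a bitter taste receptor, had the reverse detection pattern. It stood at -4.52, -5.07 and -5.17 in oleic acid brains, all well above background, and at -7.48 and -7.64 in serum brains, neither above it. Its difference of 2.64 ± 0.56 (2.44 without oleic acid replicate 1) did not pass (limma adjusted p = 0.386), and the bound was at least 1.25-fold higher. With slide as a fixed block the same difference passed (limma adjusted p = 0.0104). Olfr1052, an olfactory receptor, gave -2.61, -3.61 and -4.73 in oleic acid brains, against -5.59 and -5.96 in serum brains, at least 3.03-fold higher. The level on oleic acid replicate 1 was the highest of the 3, the difference was 2.13 with it and 1.61 without it, and a second Olfr1052 probe was above background on no array of either group.

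Another 3 of the 44 named genes detected on all arrays of 1 treatment and none of the other had the smallest unadjusted p among the rest. Neurog3, a transcription factor that specifies endocrine cells of the pancreas, stood at -3.48, -3.50 and -2.57 in oleic acid brains and at -4.78 and -5.57 in serum brains, at least 3.64-fold higher. Cd300a, an inhibitory receptor of myeloid cells, gave -3.0, -3.55 and -4.76, against -5.60 and -5.42, at least 2.79-fold higher. Col14a1, a collagen of connective tissue, was the lower one, at -5.20, -5.08 and -5.43 in oleic acid brains and -4.22 and -4.51 in serum brains, at least 1.74-fold lower. The groups did not overlap for any of the 3, which their selection by detection on these arrays largely fixed in advance. Of all genes 18.1% did not overlap in either direction. None of the 3 passed (limma adjusted p = 0.435 to 0.595), and second probes of Col14a1 and Neurog3 gave differences of 0.28 and 0.68. Without oleic acid replicate 1 the differences of Neurog3, Cd300a and Col14a1 were 2.14, 1.35 and -0.89, against 1.99, 1.74 and -0.87 with it.

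Among named genes well above background on all 5 arrays, the 10 higher and 10 lower ones with the smallest unadjusted p are described here as genes that did not pass. Tyw3, an enzyme that modifies the tRNA base wybutosine, stood at -1.57, -1.85 and -1.76 in oleic acid brains and -2.37 and -2.48 in serum brains, 1.62-fold higher at a difference of 0.70 ± 0.14 (limma adjusted p = 0.261). Zfp873, a zinc finger protein, gave -3.35, -3.13 and -3.28, against -3.84 and -3.95, a difference of 0.64 ± 0.13 (limma adjusted p = 0.271). The oleic acid levels of both genes lay within a span narrower than their distance to the serum arrays. Dok5, an adaptor of receptor tyrosine kinases found in neurons, gave -2.83, -2.75 and -2.93 in oleic acid brains and -3.50 and -3.68 in serum brains (0.75 ± 0.20), again without overlap.

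The other 7 higher genes had differences of 0.44 to 1.02, each with an adjusted p of 0.996 in limma. Car3, a carbonic anhydrase abundant in muscle and fat, stood at -3.72, -3.52 and -3.51 in oleic acid brains and -4.65 and -4.12 in serum brains. Abcb1b, a drug efflux transporter, gave -1.32, -1.57 and -1.09, against -1.70 and -1.91. Cyp20a1, an orphan cytochrome P450, gave -1.74, -1.60 and -2.36, against -2.55 and -2.76, while a second probe of it showed a difference of 0.04. The groups did not overlap for these 3 genes, nor for Tmem169, Ppp1r36 and Klhl23, and overlapped for Hus1, a checkpoint protein of DNA damage. In Tmem169 and Ppp1r36 the highest level was on oleic acid replicate 1, and without that array their differences were 0.41 and 0.57 in place of 0.70 and 1.02. Klhl23 stood highest on oleic acid replicate 3, at -2.29, against -3.17 and -3.70 on the other oleic acid arrays and -3.75 and -4.09 on the serum arrays.

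On the lower side, Apold1, an early-response protein of vascular endothelium, stood at -1.59, -1.05 and -1.50 in oleic acid brains and -0.59 and -0.08 in serum brains. Its difference was -1.04 ± 0.29 (limma adjusted p = 0.996, as for the other 9), and a second Apold1 probe gave -0.74. Tnfrsf10b, a death receptor for the ligand TRAIL, gave -3.95, -3.74 and -3.55, against -3.34 and -2.05 (-1.05 ± 0.30). Smad6, an inhibitor of bone morphogenetic protein signalling that is expressed in endothelium, gave -3.99, -3.87 and -3.59, against -3.57 and -2.40. Serum replicate 2 was the high array in these 3 genes, and without it the differences were -0.79, -0.41 and -0.25.

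Hsf2, a heat shock transcription factor, stood at -0.56, -0.18 and -0.77 in oleic acid brains and 0.21 and -0.00 in serum brains (-0.61 ± 0.18). Slc39a1, a zinc importer, gave 1.63, 2.21 and 1.35, against 2.59 and 2.23 (-0.68 ± 0.20). Meig1, a gene of meiotic and ciliated cells, gave -1.75, -1.71 and -1.77, against -1.32 and -1.15. None of these groups overlapped, although oleic acid replicate 2 came within 0.02 of a serum array in Slc39a1. Macrod2, Pard3 and Pitpnc1 were lower by 0.47 to 0.67 without overlap. However, the other 4 probes of Macrod2 gave -0.39 to -0.09 and the other 3 of Pard3, a cell polarity protein, -0.16 to 0.10. A second probe of Pitpnc1 gave -0.07. Traf4, an adaptor of TNF receptor family signalling, overlapped between the groups. All 20 genes kept their sign without oleic acid replicate 1, between oleic acid replicate 2 and serum replicate 1, and between oleic acid replicate 3 and serum replicate 2, which are values used in part to choose them.

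**Figure D4:**
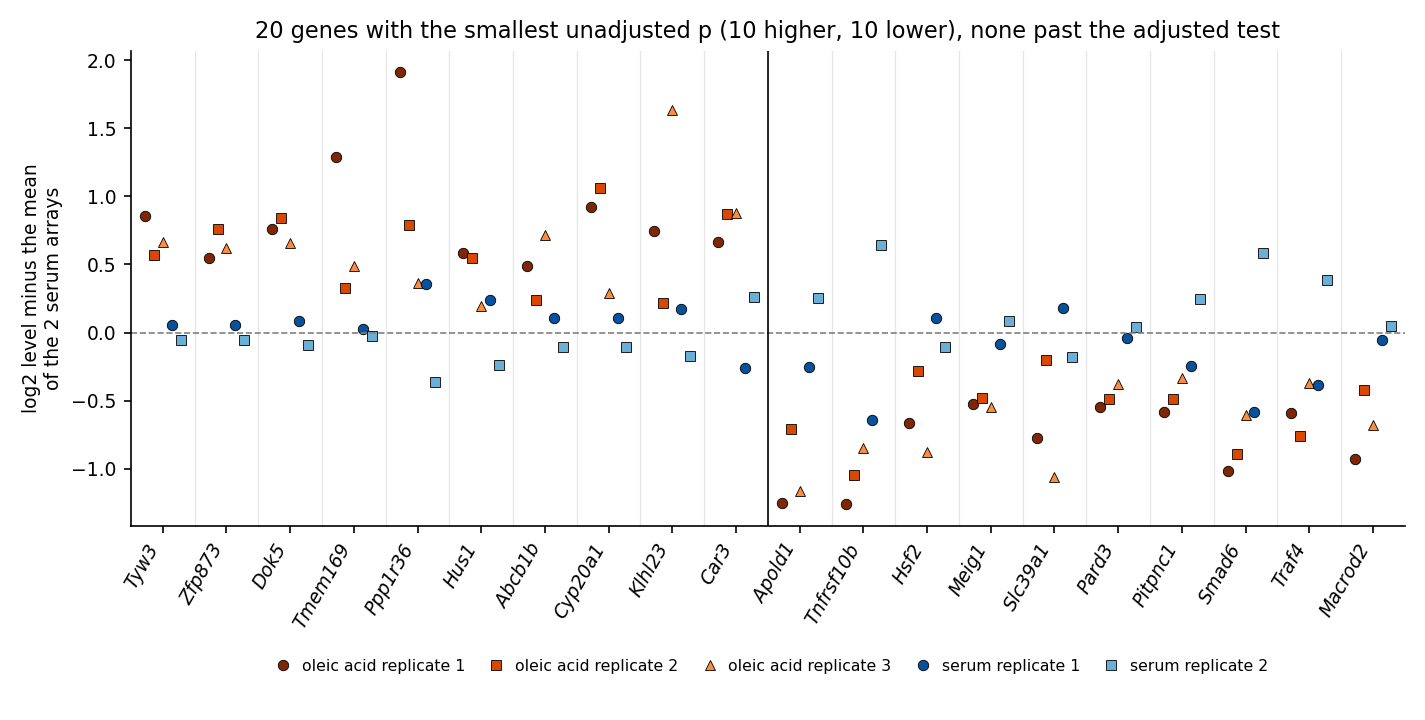
Log2 level minus the mean of the 2 serum arrays for 20 named genes, 10 higher (left of the line) and 10 lower (right) in oleic acid brains, with the 3 oleic acid arrays left of the 2 serum arrays in each column. No gene shown passed the adjusted test, the groups overlap for Hus1 and Traf4, and the genes were chosen by these differences.

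Genes of other organs made up the list with the highest median. Alb, the plasma albumin made in liver, stood at -0.75, -0.55 and 0.65 in oleic acid brains and -1.72 and -6.09 in serum brains, a difference of 3.69 ± 1.16 (limma adjusted p = 0.996). Fgb, a fibrinogen chain, gave -2.48, -2.57 and -1.82, against -3.48 and -7.33. The groups did not overlap in either gene. Both were well above background on all 3 oleic acid arrays and on 1 of 2 serum arrays, so serum replicate 2 has only a bound and the size of these differences is not settled. Of 17 liver genes 15 were higher in oleic acid brains, with a median of 1.18, and 9 did not overlap, a larger share than the 9.45% of all genes. The list mean was -2.30, -1.86 and -1.44 for oleic acid and -2.40 and -3.92 for serum, within the -4.07 to 0.79 seen over the 31 arrays. Without serum replicate 2 the median was 0.49, and no member passed the adjusted test in either fit. Serum replicate 1 lay close to oleic acid replicate 1 in the list mean, and serum replicate 2 lay apart from the other 4.

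Lung genes showed a similar order. Scgb1a1, the secretory protein of airway club cells, stood at -0.49, -0.31 and -0.69 in oleic acid brains and -2.88 and -5.10 in serum brains (3.50 ± 1.26, limma adjusted p = 0.996), and was well above background on 1 of the 2 serum arrays. Sftpc, a surfactant protein of alveolar cells, gave -0.58, -0.35 and -0.39, against -1.06 and -1.36. Of 7 lung genes 6 were higher at a median of 0.77 (5 of 7 at 0.57 under scaling to the median). Of these 6, 5 were without overlap, Scgb1a1 and Sftpc included, against 9.45% of all genes. The lower lung gene was without overlap too, against 8.7% of all genes. Markers of muscle and heart gave 8 of 10 higher at a median of 0.32, which was 0.01 without oleic acid replicate 1, and kidney genes 5 of 9 at 0.11. Ttr, the transthyretin of the choroid plexus, ranged from 6.11 to 6.47 in oleic acid brains and from 6.44 to 6.45 in serum brains. Of 16 choroid plexus genes 12 were lower at a median of -0.11, which ranged from -0.30 to -0.03 over the alternatives tried. The part that liver or lung RNA in the samples has in these values was not tested.

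Pituitary genes were near background. Gh, growth hormone, stood at -4.90, -3.42 and -4.90 in oleic acid brains, all well above background, and at -6.58 and -7.60 in serum brains, neither above it. Cga, the common subunit of the glycoprotein hormones, gave -7.41, -3.66 and -6.17, against -7.19 and -3.66. Gh did not overlap between the groups whereas Cga did, and 5 of 7 measured pituitary genes were higher at a median of 0.43 (4 of 7 under scaling to the median or quantile normalization). The pituitary median was 0.055 without serum replicate 1 and 0.81 without serum replicate 2.

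Cytokines and chemokines did not separate the groups. Ccl2, a chemokine that draws monocytes, stood at -3.21, -4.24 and -3.0 in oleic acid brains and -4.43 and -1.58 in serum brains (-0.48 ± 0.53). Cxcl10, an interferon-induced chemokine, gave -4.46, -4.60 and -4.52, against -5.0 and -3.46. For both, the serum arrays lay on either side of all 3 oleic acid arrays, and the same held for Ccl3, Ccl4, Ccl5 and Ccl7. Of 9 measured genes of this list 8 were lower at a median of -0.08, none passed and none was without overlap, and without serum replicate 2 the median was 0.47 with 8 higher. Of these genes, Ccl3 and Ccl7 were above background on 1 of 3 oleic acid arrays and 1 of 2 serum arrays, and Il1b, interleukin 1 beta, did not pass the filter on dim probes and was not tested.

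Genes of NF-kB feedback and endothelial activation gave 4 of 13 higher at a median of -0.20, which was -0.06 with 6 higher without serum replicate 2 and -0.04 without oleic acid replicate 2. Nfkbia, the inhibitor of NF-kB, stood at 3.96, 3.43 and 4.03 in oleic acid brains and 4.13 and 3.94 in serum brains. Birc3, an apoptosis inhibitor induced by NF-kB, was the highest of the list at -3.31, -3.87 and -3.76, against -4.32 and -4.18 (0.60 ± 0.28, limma adjusted p = 0.996). Only Nfkb1 and Birc3 were higher without overlap, against 9.45% of all genes. Tnfaip3 was lower without overlap, against 8.7% of all genes, and none passed. Vcam1, an adhesion molecule of activated endothelium, gave 1.58, 1.41 and 1.12, against 1.55 and 1.59, with oleic acid replicates 2 and 3 below both serum arrays.

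Interferon-stimulated genes were higher in 19 of 27 cases at a median of 0.16, and scaling to the median turned this to 12 of 27 and -0.04. Irgm1, an interferon-induced GTPase, stood at 0.65, -0.15 and -0.03 in oleic acid brains and -0.47 and -0.32 in serum brains (0.55 ± 0.19), with no overlap. Gbp2, a guanylate-binding protein, gave -0.57, -1.70 and -1.58, against -2.52 and -1.33. Oleic acid replicate 1 was the highest array in both genes. Psmb8, a subunit of the immunoproteasome, gave 0.10, -0.84 and -0.39, against -1.32 and -0.24, again highest on oleic acid replicate 1 and lowest on serum replicate 1. The list mean was -0.94, -1.47 and -1.44 for oleic acid and -1.68 and -1.27 for serum, and without oleic acid replicate 1 the median was 0.01 with 15 of 27 higher. Isg15, a ubiquitin-like protein, was among the 8 lower ones, at 0.21, 0.34 and -0.11, against 0.42 and 0.27. No member passed the adjusted test.

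Leukocyte genes were all slightly higher on the main scale, 8 of 8 for neutrophils and monocytes (median 0.30) and 4 of 4 for lymphocytes (median 0.27), and under scaling to the median 6 of 8 and 3 of 4. S100a9, a calcium-binding protein of neutrophils, stood at 0.65, 1.18 and 1.04 in oleic acid brains and 0.07 and 1.38 in serum brains (0.23 ± 0.46). Retnlg, a resistin-like protein of neutrophils, gave -3.42, -3.79 and -4.21, against -5.43 and -3.77. In both, serum replicate 1 was lowest and serum replicate 2 was level with or above an oleic acid array. Without serum replicate 1 only 2 of the 8 were higher, at a median of -0.03. Haemoglobin genes overlapped as well, with Hba-a1 at 6.67, 6.68 and 6.45 in oleic acid brains and 6.36 and 6.66 in serum brains.

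Microglial genes, which mark the resident macrophages of the brain, had a median of -0.04 over 14 genes, 5 of them higher. Cx3cr1, the fractalkine receptor, stood at 2.28, 1.97 and 2.54 in oleic acid brains and 2.04 and 2.84 in serum brains, and Trem2, a lipid-sensing receptor, at 1.98, 1.86 and 2.30 against 1.78 and 2.43. The serum arrays again enclosed most of the oleic acid values. Reactive astrocyte genes gave 4 of 13 higher at a median of -0.12. Lcn2, lipocalin 2, stood at -0.71, -0.52 and -1.21, against 0.44 and -1.10, and Gfap, the astrocyte filament protein, at 2.73, 2.53 and 2.59, against 2.36 and 2.80. Astrocyte genes were lower in 9 of 12 cases at a median of -0.10, which ranged from -0.29 to -0.05 over the alternatives tried. Lists of neurons, oligodendrocytes and their precursors had medians of -0.03, -0.03 and 0.00 over 12, 12 and 10 genes.

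Ependymal genes, which serve the cilia that line the ventricles, were lower in 9 of 10 cases at a median of -0.21, and 5 of the 10 did not overlap, against 8.7% of all genes. Tmem212, a protein of these ciliated cells, stood at -1.41, -1.59 and -1.45 in oleic acid brains and -1.21 and -0.94 in serum brains (-0.41 ± 0.20). Dynlrb2, a dynein light chain, gave 0.12, -0.00 and 0.12, against 0.29 and 0.44. All oleic acid levels lay below both serum levels in these genes, while Foxj1, the transcription factor of ciliated cells, overlapped at -0.23, -0.66 and -0.60, against -0.78 and -0.27. The list mean was -0.27, -0.19 and -0.22 for oleic acid and -0.08 and 0.05 for serum, against a median of -0.20 over the 31 arrays. Serum replicate 2 held the highest list mean of the 31. The list was 10 of 10 lower without oleic acid replicate 1 (median -0.15) and 7 of 10 without serum replicate 2 (median -0.16), and no member passed.

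Vascular genes divided. The endothelial list had a median of -0.01 over 15 genes, with Cldn5, the tight junction claudin, at 3.28, 3.08 and 3.45 in oleic acid brains and 2.36 and 4.2 in serum brains. Of the 15, only Slco1a4, an organic anion transporter, had an unadjusted p under 0.05, against 3.04% of all genes. Slco1a4 stood at 0.90, 0.79 and 0.59, against 0.65 and 0.36, and the groups overlapped. Pericyte, smooth muscle and fibroblast genes were lower in 14 of 15 cases at a median of -0.19, and in 8 of 15 at -0.11 without serum replicate 2. Dcn, the proteoglycan decorin, gave 2.13, 2.26 and 2.17, against 2.47 and 2.59 (-0.34 ± 0.20), and Col3a1, a fibrillar collagen, gave -1.22, -1.37 and -1.37, against -1.04 and -0.95. Both genes were without overlap, as were Col1a1 and Lum, against 8.7% of all genes, and none of the 15 passed.

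Early-response and hormone-response genes showed large differences between mice of the same group. Jun, an AP-1 subunit, stood at 2.60, 2.77 and 2.52 in oleic acid brains and 3.12 and 3.26 in serum brains (-0.56 ± 0.26), without overlap, whereas Fos, its partner, gave -0.14, -0.07 and -0.20, against -0.37 and -0.10 (0.10 ± 0.35). Of 19 immediate early genes 13 were lower at a median of -0.12, and without serum replicate 2 the median was 0.17. Plin4, a lipid droplet protein induced by glucocorticoids, ranged widely at 1.24, 1.83 and -0.19 in oleic acid brains and 2.46 and -1.29 in serum brains. Fkbp5, a co-chaperone of the glucocorticoid receptor, gave 2.08, 2.40 and 1.49, against 2.65 and 1.26. Serum replicate 1 was the highest and serum replicate 2 the lowest array for both, enclosing all 3 oleic acid arrays. The mean of 16 glucocorticoid-response genes was 3.20, 3.26 and 3.01 in oleic acid brains and 3.66 and 2.82 in serum brains, all above the median of 2.33 over the 31 arrays. Their median difference was -0.12, with 0.18 without serum replicate 1 and -0.40 without serum replicate 2. Clock genes had a median of 0.00 over 17 genes.

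Stress and energy genes were lower on the main scale in most cases but by small amounts. Of 19 genes of the unfolded protein response 16 were lower at a median of -0.18, 7 of them without overlap, against 8.7% of all genes. Without serum replicate 2, 13 were lower at -0.09. Hspa5, the main chaperone of the endoplasmic reticulum, stood at 4.23, 4.29 and 4.28 in oleic acid brains and 4.39 and 4.79 in serum brains (-0.32 ± 0.19). Creld2, a chaperone-associated protein, gave 2.26, 2.35 and 2.42, against 2.53 and 2.72. All oleic acid arrays were below both serum arrays in these genes. Respiratory chain and ATP synthase genes were lower in 21 of 24 cases at a median of -0.15, with 9 not overlapping, against 8.7% of all genes. Their list mean was 5.57, 5.63 and 5.71 in oleic acid brains and 5.71 and 5.84 in serum brains, all above the median of 5.53 over the 31 arrays. Serum replicate 2 held the highest list mean of the 31 arrays, here and for cytosolic ribosomal proteins (6.69). Cox5a, a subunit of cytochrome c oxidase, gave 6.63, 6.84 and 6.73, against 7.01 and 7.0 (-0.27 ± 0.12), and Ndufa1, a subunit of complex I, 5.17, 5.34 and 5.30, against 5.52 and 5.58. Cytosolic ribosomal protein genes gave 17 of 22 lower at -0.11 (11 of 22 at -0.015 without serum replicate 2) and heat shock genes 13 of 14 at -0.09, a median that was 0.05 without serum replicate 2. These lists hold bright genes, and in the brightest of the 4 parts of all genes 35.1% of the differences were above 0 at a median of -0.06. Without serum replicate 1 or serum replicate 2 the respiratory chain median was -0.22 or -0.05, and no gene of these lists passed.

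Responses that follow hypoxia or oxidants were not visible as lists. HIF targets had a median of -0.06 with 7 of 16 higher. Egln1, an oxygen sensor that is itself a HIF target, stood at -0.74, -0.88 and -0.84 in oleic acid brains and -0.94 and -1.68 in serum brains (0.49 ± 0.16, limma adjusted p = 0.996). Ddit4, a stress-induced inhibitor of mTOR signalling, gave 5.02, 3.93 and 5.45, against 5.59 and 5.35. Egln1 did not overlap, with serum replicate 2 lowest, and Ddit4 did, with oleic acid replicate 2 lowest. Antioxidant targets of NRF2 had a median of 0.00 over 14 genes, among them Hmox1, haem oxygenase, at -0.15, -0.65 and 0.03, against -0.76 and 0.05.

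Genes that handle fatty acids, the class of the injected compound, were also divided. PPAR targets and fatty acid oxidation genes gave 12 of 20 higher at a median of 0.06, and 4 of 20 under scaling to the median. Angptl4, a lipase inhibitor induced by fatty acids, stood at 2.99, 2.56 and 2.88 in oleic acid brains and 3.14 and 2.28 in serum brains, above its median of 0.55 over the 31 arrays in both groups. Cpt1a, the carnitine transferase that admits fatty acids to mitochondria, gave 1.30, 1.21 and 1.27, against 1.21 and 1.09 (0.11 ± 0.11). The groups did not overlap in Cpt1a, although its levels agree at 1.21 to 2 decimals on 1 array of each group, and they overlapped in Angptl4. In fatty acid binding and transport 7 of 14 were higher at -0.04. Fabp4, a fatty acid binding protein of adipocytes and macrophages, gave -3.50, -3.81 and -4.73, against -4.75 and -4.89 (0.81 ± 0.42), and Slc27a1, a fatty acid transporter, 2.06, 1.98 and 1.82, against 1.28 and 1.74. Both were without overlap, with Fabp4 separated by 0.02. Synthesis genes of fatty acids and cholesterol had a median of -0.08 over 18 genes, and Scd1, the desaturase that makes oleic acid, overlapped at 2.16, 2.88 and 2.01, against 3.03 and 1.87. No member of the 3 lists passed.

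**Figure D5:**
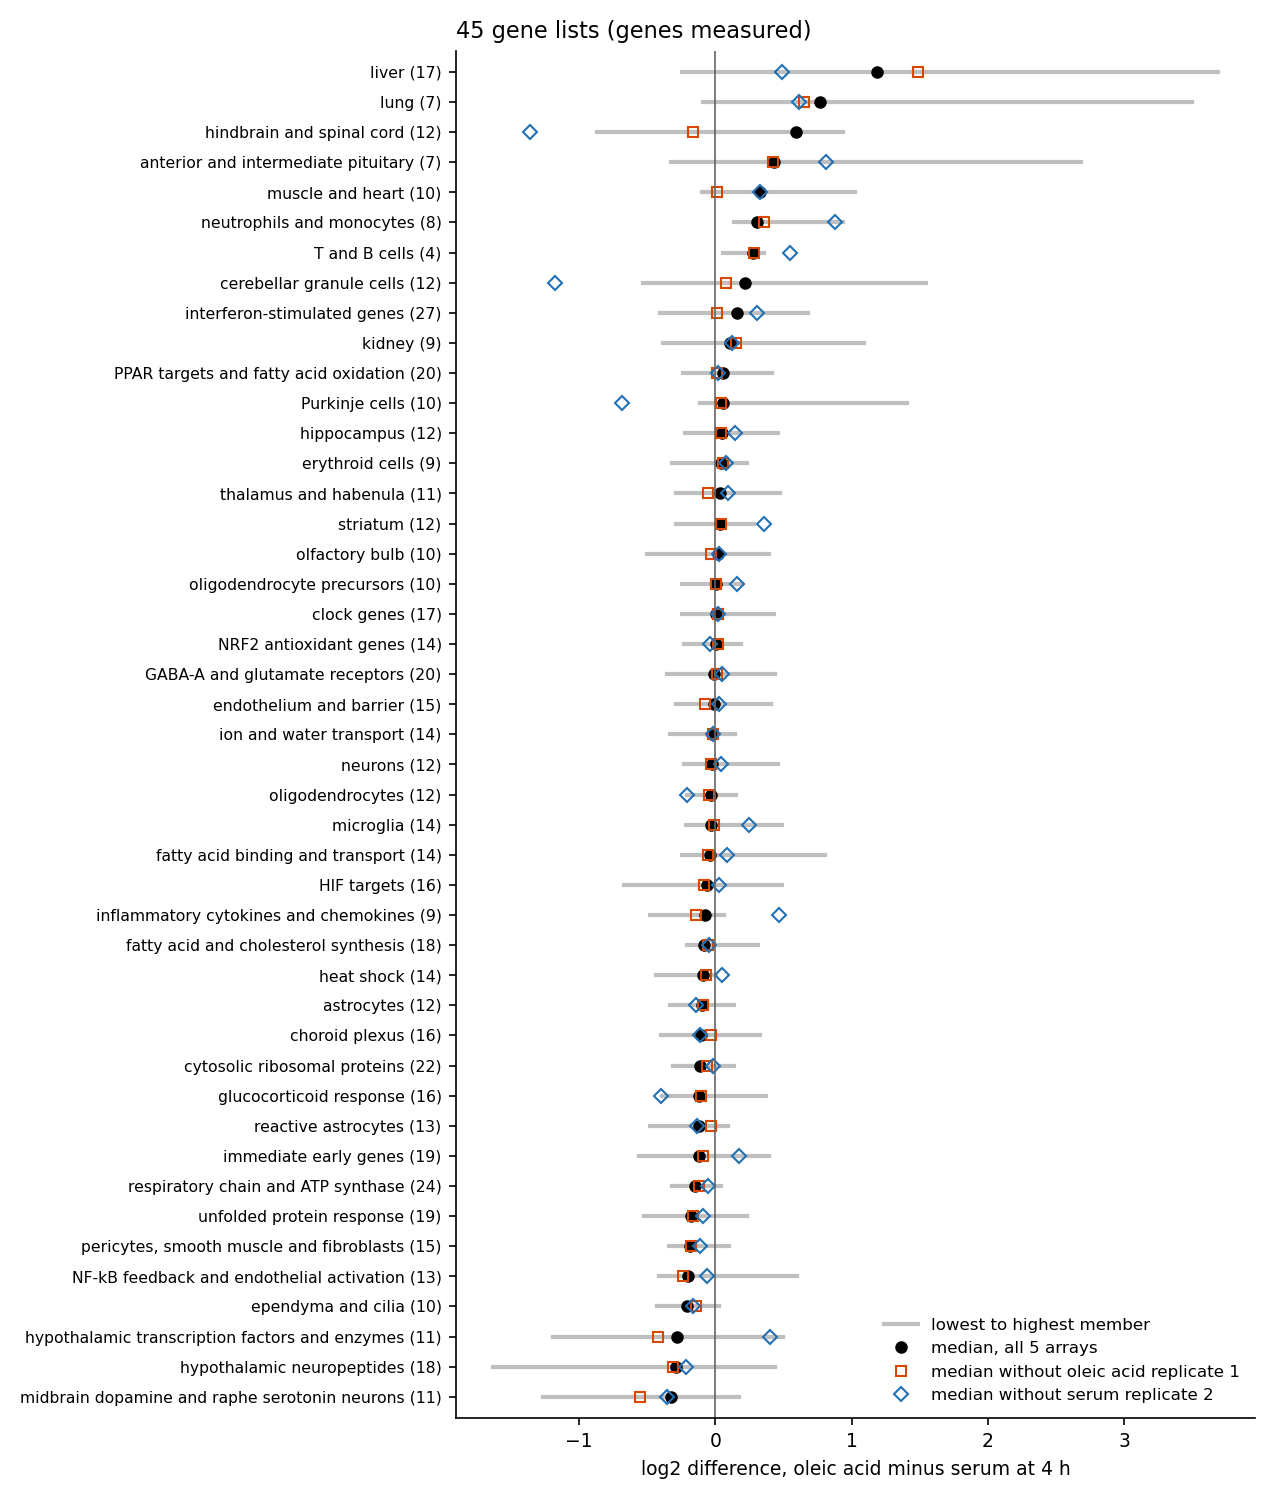
Median oleic acid minus serum difference (log2) of 45 gene lists with the number of genes measured, from all 5 arrays (black), without oleic acid replicate 1 (orange squares) and without serum replicate 2 (blue diamonds), with grey bars from the lowest to the highest member. Liver and lung genes have the highest medians, at 1.18 and 0.77, and cerebellar, hindbrain and cytokine lists change sign without serum replicate 2.

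Synaptic and ion transport genes were even between the groups. Over 20 GABA-A and glutamate receptor genes the median was -0.01 with 10 higher, and over 14 ion and water transport genes it was -0.03. Aqp4, the water channel of astrocytes, stood at 1.30, 2.24 and 1.12 in oleic acid brains and 2.15 and 1.63 in serum brains (-0.34 ± 0.34). Its order across arrays placed oleic acid replicate 2 and serum replicate 1 highest.

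Whether a difference at 4 h departed from the mean difference at the other 5 times was tested in the same fit. A single feature passed, again ENSMUST00000079163, at -3.43 (limma adjusted p = 0.00573), and 717 features had an unadjusted p under 0.05, 2.85% of those tested. The serum arrays at 4 h enter both tests, and the filter let the feature in through them alone, so this is no second line of evidence. By lists, the median departure from the other times was highest for liver at 1.75 and lung at 1.24. Erythroid genes had a median difference of 0.68 between 4 h and the other times while their median at 4 h itself was 0.04. Their medians at 1, 1.5, 3, 18 and 24 h were -1.25, -0.30, -1.09, -0.47 and -0.02. Hba-a1 gave 0.91 between times, which did not pass, and 0.09 ± 0.39 at 4 h alone.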

How the data were processed

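The authors deposited scanner output of single-colour arrays; per the file headers it was read by version 10.5.1.1 of Agilent's Feature Extraction, with a processed Cy3 intensity for each spot after background subtraction. Deposited value tables on a log2 scale, whose exact scaling the sources used here do not give, served as an alternative. From the deposited intensities, log2 was taken and spots flagged as non-uniform were left out. The 75th percentile of each array was then subtracted, and spots of a probe were averaged. Control spots were left out. Of 55681 probes, 35641 passed a filter on dim probes, being well above background on all arrays of at least 1 of the 12 groups. Of these, 35487 were measured on all 31 arrays. From them 25162 genes and unnamed transcripts, each read from 1 probe, were tested. Gene names were updated through RefSeq accessions for 26582 probes. All 12 groups (31 arrays) shared 1 fit in limma 3.58.1 (R 4.3.3; lmFit and eBayes, 19 residual degrees of freedom) with Benjamini-Hochberg adjustment, tested on simulated data. The mice were separate animals, and p-values rest on the spread between arrays within the 12 groups. That spread holds differences in regional content as well as differences between mice. Some groups of other times were split between slides, so slide differences enter it too. The number of arrays limits the precision.

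Genes were named by a rule: those that passed; as not passing, the 10 higher and 10 lower with the smallest unadjusted p above background on all 5 arrays, and 5 detected in all arrays of 1 treatment and none of the other; and list members in list order or at a list's extremes. Some further list members were picked with their values in view. The compared arrays, the lists and the rule were chosen with earlier results of these data known. Of 678 listed genes 615 were measured. A bound written as at least N-fold sets the brighter group's mean against a value for each array of the dimmer group. That value was the lowest signal well above background on the array, or the gene's own reading where that was higher. The own reading was used on some arrays for Neurog3 and Col14a1, so that lowest signal is not a strict detection limit. Alternatives were other background correction, scaling, filters, probe averaging, slide and replicate blocks, array weights, moderation settings, the 5 arrays alone, region scores as covariates, and leaving out arrays.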

Additional observations from a re-analysis of the deposited data

Results flagged for a closer look

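ENSMUST00000079163 stood out because its oleic acid minus serum difference at 4 h departed from the mean difference at the other 5 times, by -3.43 on the log2 scale (limma adjusted p = 0.00573). With slide as a fixed block it was not among the features that passed. The departure came with high readings on both serum arrays at 4 h, -4.24 and -3.68, while the oleic acid arrays at 4 h, at -7.53, -7.15 and -7.16, lay within the range of the other 26 arrays. It rests on 1 dim spot on each array, the filter on dim probes kept it only through the 4 h serum arrays, and its cause was not tested.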

How the results depend on the processing

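Counts of passing genes were small under each alternative. The number higher in oleic acid brains was 0, and 1 with slide as a fixed block (Tas2r137) and 1 with the replicate block. The number lower was 1, against 2 with quantile normalization (the second being Gja5, at -1.94) and 0 with normexp, with only probes above background on all 5 arrays, with the replicate block, with array weights, with trended robust moderation, with the 5 arrays alone and without both arrays low for Gabra6. The number departing from the other times was 1, against 6 with slide as a fixed block (Tas2r137 among them, ENSMUST00000079163 not) and 0 with normexp, the all-5-array filter, the replicate block, array weights, trended robust moderation and without both arrays low for Gabra6; it could not be computed from the 5 arrays alone. Leaving out each array in turn gave 0 to 2 higher, 0 to 2 lower and 0 to 3 departing, with 2, 2 and 3 without serum replicate 1 and 0, 0 and 0 without serum replicate 2. Replicate numbers were not treated as pairs: same-numbered arrays deviated together at over 0.1 in 3 of 14 pairs, with correlations from -0.62 to 0.39. In groups of 2 arrays the deviations mirror each other, so the pairs are not independent and this check cannot show that the mice were unpaired. Unadjusted counts were 523 higher and 241 lower, against 219 and 900 with scaling to the median, 301 and 567 with quantile normalization, and 148 and 211 with normexp. Col14a1 was 0.28 when probes missing on some arrays were kept, where another of its probes was used. Of the other comparisons of the 26 named features with alternatives, 531 kept direction and side of the threshold, 7 lost the call and 1 gained it. Signal near background limits the receptor, hindbrain, pituitary, lung, liver and chemokine values.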
